A study of Mus musculus with 6 samples.

Results

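This account follows 37 genes that encode proteins of the synapse, out of 33084 genes in the count table of a study of the embryonic mouse forebrain. The members were selected from a list of symbols for pre- and postsynaptic proteins and matched to the table through the GENCODE annotation of GRCm38. All 37 were found and all 37 passed the filter on low counts. By the annotation, 4 of them lie on the X chromosome (Syn1, Syp, Nlgn3 and Dlg3) and the others on autosomes. They fall into 6 roles: 7 vesicle proteins, 9 proteins of the fusion machinery with their calcium sensors, 5 active zone proteins, 5 adhesion molecules, 9 postsynaptic scaffolds and 2 subunits of the kinase CaMKII. RNA was sequenced from forebrains dissected at 15.5 days post coitum. There were 3 mutant libraries, of genotype Dyrk1a<DlxCre/+>, and 3 control libraries, labelled wt. By the title of the series, Dyrk1a, a protein kinase gene, is inactivated conditionally in the Dlx5 domain, the ventral territory that gives rise to GABAergic neurons. The + in the genotype stands for a wild-type copy, so cells of that domain are taken to keep 1 copy. Cells outside the domain, among them the glutamatergic neurons of the cortex, are in the same libraries and express many of the same synaptic genes. The labels give neither the litters nor whether controls carried the Cre driver or the conditional allele, so effects of those alleles cannot be told apart from the inactivation, and p-values measure only the spread between these libraries.

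A chemical synapse joins a presynaptic terminal, which stores transmitter in vesicles, to a postsynaptic membrane that carries the receptors. Vesicles are docked and primed at the active zone, SNARE proteins pull the membranes together, and calcium acting on synaptotagmin triggers release. Neurexins and neuroligins bridge the cleft, and scaffold proteins under the postsynaptic membrane hold receptors and kinases in place. In the mouse forebrain before birth most synapses have yet to form, but postmitotic neurons already transcribe these genes, some of which also serve axon growth and vesicle traffic. Dividing progenitors are known to hold less of their RNA.

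RefSeq windows on GRCm38.p6, running from 250 bases before to 50 bases after an annotated start of a gene, were found for 27 of the 37 members. A gene could have several windows and counted as having a motif if any of them held it. The 27 members had 45 windows, and all 27025 genes had 32851, so members had more windows per gene on average. The shares of genes below are not corrected for that. The members with no window here are Syn3, Snap25, Vamp2, Syt4, Rims2, Nrxn2, Nlgn3, Shank1, Shank2 and Camk2a. The GC box GGGCGG, searched on both strands, was in 21 of 27 members (77.8%), against 67.0% of 11490 tested protein-coding genes with a window and 38.2% of all 27025 genes with one. TATAAA was in 3 of 27 members (11.1%), Dlg1, Dlg2 and Sv2b, against 8.97% of the tested protein-coding genes. Syn1, which encodes synapsin I, was the only member with a close match to RE1, the element bound by the repressor REST, a factor known to keep neuronal genes silent outside neurons. RE1 was searched on both strands by its consensus, allowing 4 mismatches among its 19 fixed letters. It was found in 1 of 27 members and in 0.496% of the tested protein-coding genes. Syn1 was also the only member with a full cAMP response element, TGACGTCA, found in 3.41% of the tested protein-coding genes. Both Syn1 stretches are shown because no other member had either one, with the letters equal to the motif in capitals:
Syn1 RE1 match, chrX:20921130-20921150, minus strand, first base at -232, with 2 mismatches: TTCAGCACCgcGGtCAGaGCC
Syn1 cAMP response element, chrX:20921059-20921088, minus strand, motif from -159: caaaggctgacTGACGTCActcactagccc
For each role, the GC box nearest the start is shown for 1 member with a box. It is the member whose replicate 3 level, averaged over the genotypes, stood furthest below replicates 1 and 2, a shift described further on. In controls, replicate 1 and not replicate 3 was the lowest library for Nlgn2 and Shank3. Capitals mark the GC box, which reads CCGCCC where it lies on the other strand:
Syp, chrX:7638519-7638548, plus strand, motif from -49: gcgaggagtatgGGGCGGgggggagccatg
Cplx1, chr5:108550021-108550050, minus strand, motif from -11: ctccgccgagccCCGCCCtcctcgtcatgc
Rims1, chr1:22806109-22806138, minus strand, motif from 38: cgcgagcaagcagcgtcGGGCGGccccggc
Nlgn2, chr11:69837791-69837820, minus strand, motif from -24: tctctcggcaggGGGCGGgggaggcggccg
Shank3, chr15:89499579-89499608, plus strand, motif from -17: cccccgccgcccCCGCCCccggggaaggca
Camk2b, chr11:6065776-6065805, minus strand, motif from -45: gggcggcgggcgGGGCGGgcgcggcggcga
Positions are counted from the RefSeq start, whose own base is 1 and the base before it -1. A match describes letters in this window and not the binding of a factor.

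The libraries held between 25360030 and 28339650 counts in mutants and between 24646616 and 38315004 in controls. Dyrk1a itself was at 186, 159 and 182 CPM in mutants and at 169, 183 and 180 CPM in controls, where CPM stands for counts per 1000000 of the scaled library size. Its log2 fold change was -0.02 ± 0.09 (SE), and a two-sided exact permutation test gave p = 0.90, where 0.10 is the smallest p that 3 against 3 libraries allow. The count covers the whole gene, so it does not single out a deleted part. Forebrain identity genes were present in all 6 libraries, with Lhx2 between 96.1 and 134 CPM in mutants and between 79.2 and 115 CPM in controls. Of 14 hindbrain and spinal identity genes, 1, Gbx2, which the thalamus also expresses, passed the filter, and Hoxa2, Hoxc4 and Hoxb5 had no count in any library. The first principal component, 37.4% of the variance, set the replicate 3 libraries of both genotypes apart from the other 4. The members' values are therefore also given by library.

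At embryonic day 15.5 the members were well above the detection limit in both genotypes. Their raw counts per library ran from 246 for Cplx1 in mutant replicate 3 to 15552 for Nrxn3 in control replicate 3. Together they took 0.405%, 0.411% and 0.333% of the scaled counts in mutant replicates 1, 2 and 3, against 0.390%, 0.434% and 0.349% in control replicates 1, 2 and 3. To compare genes, CPM was divided by the exon length of the gene in kilobases (RPKM). On that scale 32 of the 37 members lay above the median of 14789 tested protein-coding genes, 5.87 RPKM, and the median member was at 10.0 RPKM. The exon length joins all annotated transcripts, so genes with long rarely used exons appear lower than their main transcript is.

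Syt11, a synaptotagmin that works in membrane traffic, had the highest level per exon length of all members, 45.8 ± 2.3 RPKM in mutants and 45.8 ± 3.0 RPKM in controls (SD, n = 3 each). It was followed by Rab3a, the small GTPase of synaptic vesicles, at 37.7 ± 7.2 and 34.5 ± 3.8 RPKM, and by Syt4 at 33.5 ± 6.3 and 36.0 ± 10.2 RPKM, in mutants and controls in that order (SD, n = 3 each). Nrxn3 stood at 31.5 ± 1.8 RPKM in mutants and 34.0 ± 1.5 RPKM in controls (SD, n = 3 each). These last 3 genes did not differ from each other beyond their spread. The order at the top depends on the length used. Exon length and longest transcript are 5205 and 5020 bases for Syt11, but 2226 and 1556 for Rab3a and 12605 and 7922 for Nrxn3.

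The lowest levels per exon length were those of Vamp1, Sv2b and Camk2a. Vamp1, a vesicle SNARE best known from the spinal cord and brainstem, was at 1.22 ± 0.08 RPKM in mutants and 1.29 ± 0.06 RPKM in controls (SD, n = 3 each). Its forebrain counterpart Vamp2 was 5.43 ± 1.1 times as high in mutants and 5.39 ± 1.2 times as high in controls, per exon length. Sv2a exceeded Sv2b by a factor of 7.72 ± 0.55 in mutants and 8.27 ± 0.37 in controls. Camk2b exceeded Camk2a by 3.93 ± 0.98 and 3.48 ± 0.78, and Cplx2 exceeded Cplx1 by 4.16 ± 0.99 and 3.66 ± 0.91, in mutants and controls in that order (SD, n = 3 each). The mutant and control libraries overlapped in each of these ratios. The plot of level per exon length shows every library.

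**Figure D1:**
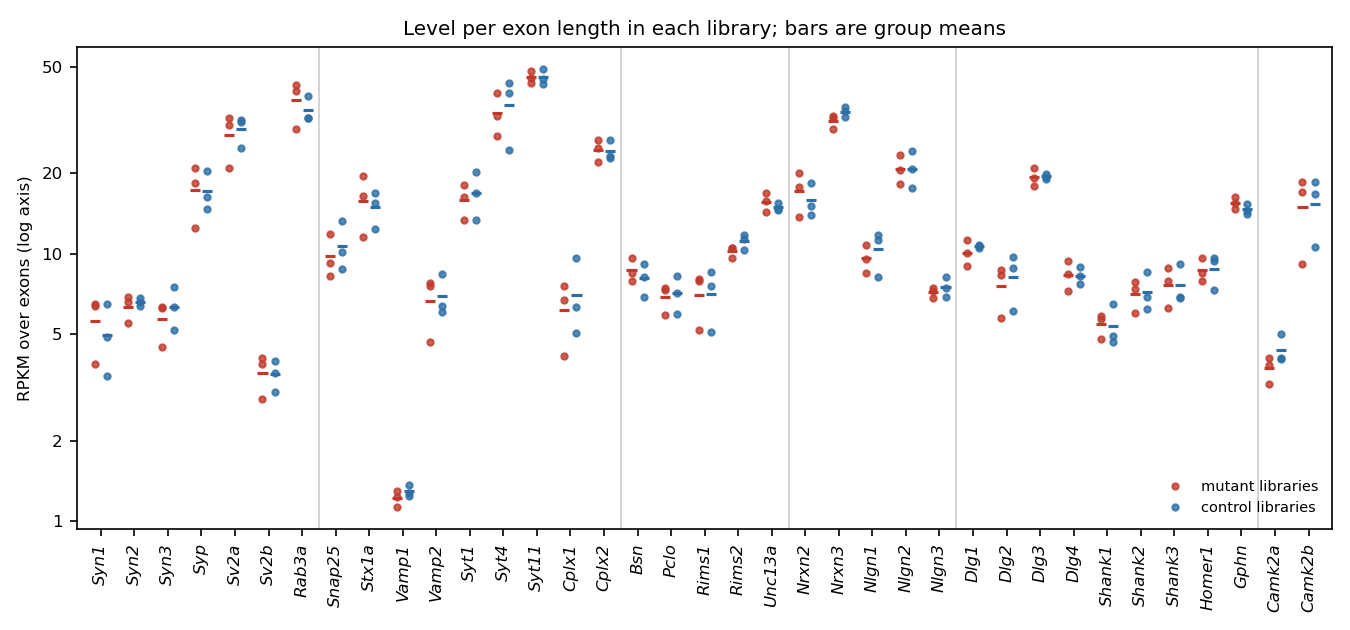
Level per exon length (RPKM, log axis) of the 37 members in each of the 3 mutant (red, left) and 3 control (blue, right) libraries, with bars at the group means and vertical lines between roles. Syt11 stands highest at 45.8 RPKM in both genotypes and Vamp1 lowest at 1.22 RPKM in mutants and 1.29 RPKM in controls, and the 2 colours overlap in every gene.

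The comparison asks whether levels of synaptic genes differ in forebrains with the conditional inactivation. None of the 37 members differed between mutants and controls by more than the spread between libraries allows to call. In edgeR's quasi-likelihood test, adjusted after Benjamini and Hochberg over all 19616 tested genes, 0 of 37 members passed at 0.05 (adjusted p = 0.9999 for each), as did 0% of all tested genes. At an unadjusted p under 0.05 there were 0 of 37 members in either direction, against 1.19% of all tested genes higher in mutants and 0.729% lower. DESeq2 also called 0 members, with 0 at an unadjusted p under 0.05. In all 37 members the mutant and control libraries overlapped, whereas 3.19% of all tested genes had every mutant above every control and 3.7% had every mutant below.

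The log2 fold changes, mutant over control, ran from -0.23 for Camk2a to 0.18 for Syn1, with a median of -0.03 over the members and -0.01 over all tested genes. Standard errors lay between 0.08 and 0.28 log2 units. The 95% interval included 0 for all 37 members. It stayed inside a 2-fold change for 37 members, inside a 1.5-fold change for 33 and inside a 1.25-fold change for 12. The 4 members whose interval reached past 1.5-fold were Syn1, Syt4, Cplx1 and Camk2b. These bounds hold for the whole forebrain and not for the cells of the Dlx5 domain alone. In bulk RNA, fewer cells of a type and less RNA per cell cannot be told apart.

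Of the 37 members, 13 lay above 0 and 24 below, where 47.5% of all tested genes lay above 0. That count rested on single libraries: leaving out mutant replicate 3 gave 27 above 0, control replicate 2 gave 25, mutant replicate 2 gave 7 and control replicate 3 gave 6. With only replicates 1 and 2 of each genotype it was 20. The forest plot of fold changes shows the intervals by role.

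**Figure D2:**
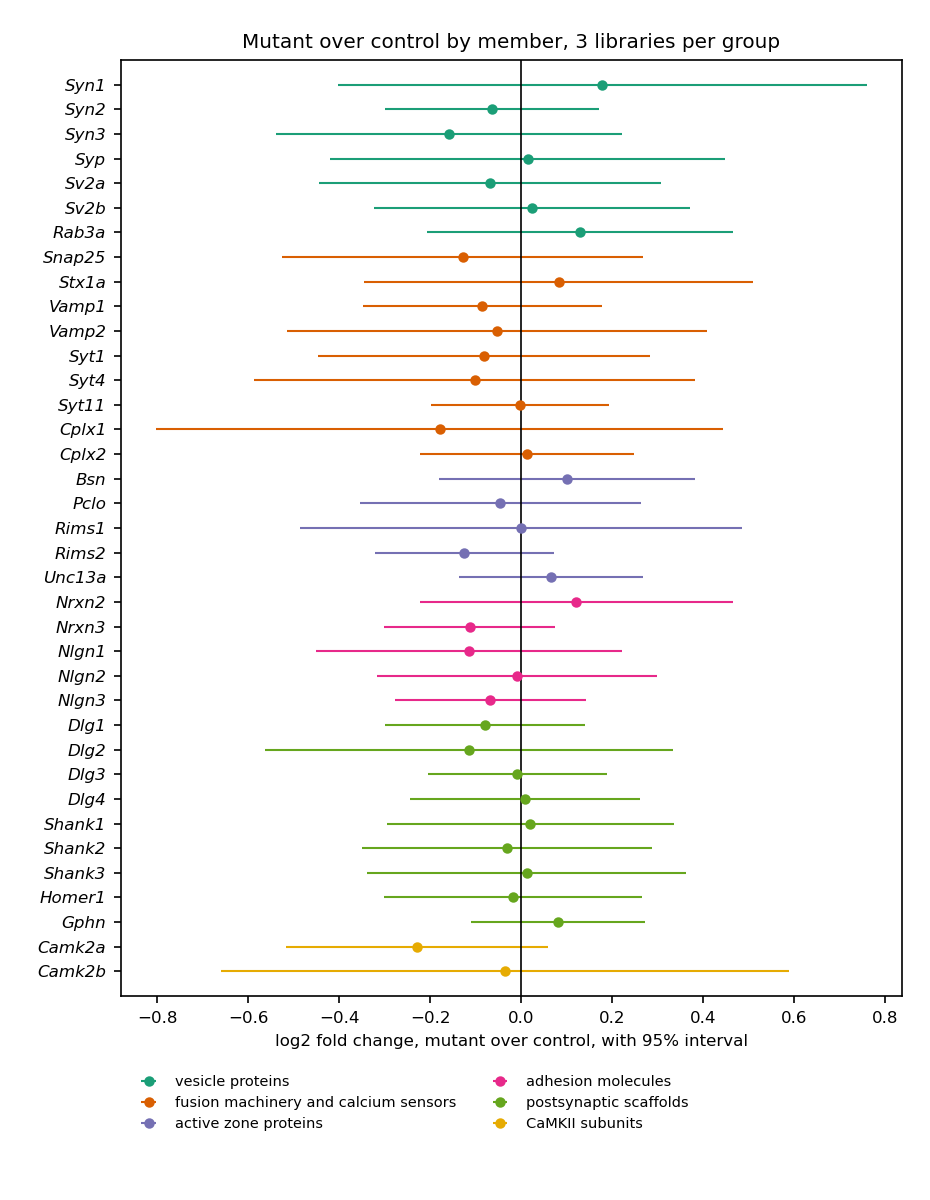
Log2 fold change of each member, mutant over control (horizontal axis; points), with its 95% interval (lines) from edgeR's fit of 3 libraries per group, coloured by role. Every interval crosses 0, and the points run from -0.23 for Camk2a to 0.18 for Syn1.

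No vesicle protein gene passed the test, with 4 of 7 above 0, a median log2 fold change of 0.01 and a smallest unadjusted p of 0.371 by edgeR. Synapsins, which tie vesicles to the actin cytoskeleton, were measured by 3 genes. Syn1 was at 20.99, 21.5 and 12.8 CPM in mutant replicates 1, 2 and 3, against 16.1, 21.5 and 11.5 CPM in control replicates 1, 2 and 3. In both genotypes replicate 3 was the low library, and the log2 fold change was 0.18 ± 0.26 (SE). Syn3, the synapsin known to be expressed early in development, was at 77.9, 76.7 and 54.9 CPM in mutants, against 77.9, 92.3 and 63.7 CPM in controls, a change of -0.16 ± 0.17 (SE). Syn2 was at 48.3, 46.3 and 38.6 CPM in mutants and 46.2, 48.1 and 45.0 CPM in controls, or -0.06 ± 0.10 (SE). Syn3 overlaps Timp3 on the opposite strand over 1733 exonic bases and whether counting used strand is not stated, so its count is uncertain.

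Synaptophysin and the SV2 proteins span the vesicle membrane. Syp, a standard marker of vesicles, was at 96.2, 109 and 65.0 CPM in mutants and at 85.1, 107 and 76.6 CPM in controls, or 0.01 ± 0.19 (SE) on the log2 scale. Sv2a, a vesicle glycoprotein gene, was at 140, 150 and 97.3 CPM in mutants and 147, 145 and 115 CPM in controls, or -0.07 ± 0.17 (SE). For its relative Sv2b the values were 34.0, 32.4 and 23.9 CPM in mutants and 33.2, 30.1 and 25.6 CPM in controls, or 0.02 ± 0.15 (SE). Rab3a, whose product recruits active zone proteins to the vesicle, was at 90.6, 95.6 and 65.5 CPM in mutants and 72.0, 86.6 and 71.7 CPM in controls. The groups overlapped only through mutant replicate 3, and the log2 fold change was 0.13 ± 0.15 (SE). Without that library it was 0.28 ± 0.11 (SE; adjusted p = 0.974, edgeR's quasi-likelihood test).

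No fusion gene passed either, with 2 of 9 genes above 0, a median of -0.08 and a smallest unadjusted p of 0.477 by edgeR. Snap25, a SNARE of the plasma membrane, was at 80.3, 63.0 and 56.2 CPM in mutants and at 68.7, 90.1 and 59.5 CPM in controls, or -0.13 ± 0.17 (SE). Its syntaxin partner Stx1a had 43.8, 51.9 and 30.8 CPM in mutants and 41.4, 45.0 and 33.1 CPM in controls, or 0.08 ± 0.19 (SE). On the vesicle side, Vamp2 had 29.5, 29.0 and 17.8 CPM in mutants and 24.4, 31.9 and 23.0 CPM in controls, or -0.05 ± 0.20 (SE). Mutant replicate 3 was the lowest library for all 3 of these SNARE genes. Vamp1 was at 12.5, 13.2 and 11.5 CPM in mutants and 13.9, 12.6 and 13.0 CPM in controls, or -0.09 ± 0.12 (SE).

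Calcium sensing and clamping proteins act on the assembled SNAREs. Syt1, the sensor of fast release, was at 150, 136 and 111 CPM in mutants and 141, 168 and 112 CPM in controls, or -0.08 ± 0.16 (SE). Syt4, a related synaptotagmin that does not act as the fast sensor, was at 156, 128 and 107 CPM in mutants and 156, 170 and 94.8 CPM in controls, or -0.10 ± 0.21 (SE). Syt11 went the other way across replicates. It was at 227, 236 and 251 CPM in mutants and 235, 225 and 256 CPM in controls, the highest value of each genotype in replicate 3, with a genotype difference of -0.002 ± 0.09 (SE). Complexins both clamp and promote fusion. The less abundant Cplx1 was at 14.8, 16.6 and 9.07 CPM in mutants and 13.8, 21.1 and 11.1 CPM in controls, or -0.18 ± 0.27 (SE). The more abundant Cplx2 was at 122, 131 and 108 CPM in mutants and 113, 131 and 114 CPM in controls, or 0.01 ± 0.10 (SE).

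Active zone genes had a median of -0.001, with 2 of 5 above 0. Bassoon and piccolo are giant scaffolds of the release site. Bsn was at 135, 154 and 126 CPM in mutants and 110, 147 and 130 CPM in controls, or 0.10 ± 0.12 (SE). Pclo was at 167, 164 and 133 CPM in mutants and 160, 185 and 134 CPM in controls, or -0.05 ± 0.14 (SE). Rims1 and Rims2 encode proteins that bind Rab3 and tether calcium channels. Rims1 was at 59.2, 58.0 and 38.3 CPM in mutants and 55.7, 62.7 and 37.4 CPM in controls, or -0.001 ± 0.21 (SE). Rims2 was at 109, 109 and 100.5 CPM in mutants and 122, 118 and 107 CPM in controls. Control replicate 3 alone lay within the mutant range, and the log2 fold change was -0.12 ± 0.09 (SE; unadjusted p = 0.186 by edgeR). Unc13a, whose product primes vesicles, was at 199, 212 and 180 CPM in mutants and 186, 196 and 184 CPM in controls, or 0.07 ± 0.09 (SE). It overlaps Colgalt1 on the opposite strand over 495 exonic bases.

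Adhesion molecules had a median of -0.07, with 1 of 5 above 0. Neurexins reach across the cleft from the presynaptic side, and the counts join their long and short transcript forms. Nrxn3, the member with the most counts, was at 413, 407 and 370 CPM in mutants and 430, 448 and 410 CPM in controls. Mutant replicate 1 was the only mutant library above the lowest control, and the change was -0.11 ± 0.08 (SE; unadjusted p = 0.207 by edgeR). Nrxn2 was at 246, 277 and 190 CPM in mutants and 209, 254 and 193 CPM in controls, or 0.12 ± 0.15 (SE). Of the neuroligins, their postsynaptic partners, Nlgn1, known from excitatory synapses, was at 145, 128 and 114 CPM in mutants and 151, 158 and 110 CPM in controls, or -0.11 ± 0.15 (SE). Nlgn2, known from inhibitory synapses, had 119, 135 and 105 CPM in mutants and 102, 140 and 120 CPM in controls, or -0.01 ± 0.14 (SE). Nlgn3, found at both kinds, was at 69.3, 67.1 and 63.3 CPM in mutants and 69.2, 76.0 and 64.1 CPM in controls, or -0.07 ± 0.09 (SE). Nlgn3 shares 3823 exonic bases with Gm21986 on the same strand, so its count is uncertain whatever the strand setting. The genotypes overlapped in each neuroligin.

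Postsynaptic scaffolds had a median of -0.01, with 4 of 9 above 0. The membrane-associated guanylate kinases encoded by Dlg1 to Dlg4 anchor glutamate receptors and channels. Among them Dlg3 had the highest level per exon length, 19.4 ± 1.5 RPKM in mutants and 19.5 ± 0.4 RPKM in controls (SD, n = 3 each), and a log2 fold change of -0.01 ± 0.09 (SE). Dlg4, which encodes the main scaffold of mature excitatory synapses, stood at 8.34 ± 1.08 RPKM in mutants and 8.29 ± 0.60 RPKM in controls (SD, n = 3 each), or 0.01 ± 0.11 (SE). Part of the gap in level between the 2 genes comes from the length used. Exon length and longest transcript are 5844 and 5017 bases for Dlg3, but 13251 and 6326 for Dlg4. By library, Dlg3 was at 113, 122 and 105 CPM in mutants and 116, 113 and 112 CPM in controls. Dlg4 was at 111, 124 and 95.8 CPM in mutants and 109, 118 and 102 CPM in controls, so the mutants spread more widely than the controls in both genes. Dlg2 was at 141, 136 and 93.4 CPM in mutants and 144, 158 and 99.5 CPM in controls, or -0.11 ± 0.20 (SE). Dlg1, which also has roles in epithelial and progenitor cells, was at 108, 96.6 and 121 CPM in mutants and 116, 115 and 113 CPM in controls, or -0.08 ± 0.10 (SE). It was the only one of the 4 in which mutant replicate 3 was the highest mutant library.

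Shank proteins form the next layer of the excitatory scaffold. Shank1 was at 59.8, 61.3 and 50.6 CPM in mutants and 49.1, 68.5 and 51.9 CPM in controls, or 0.02 ± 0.14 (SE). Shank2 was at 79.6, 84.3 and 64.4 CPM in mutants and 74.4, 91.7 and 67.1 CPM in controls, or -0.03 ± 0.14 (SE). Shank3 was at 72.9, 81.1 and 57.6 CPM in mutants and 62.8, 83.9 and 63.2 CPM in controls, or 0.01 ± 0.15 (SE). In all 3 Shank genes the highest library was control replicate 2 and the genotypes overlapped. Homer1, whose long and short transcripts were counted together, links Shank to metabotropic glutamate receptors. It was at 116, 94.4 and 102 CPM in mutants and 112, 115 and 88.0 CPM in controls, or -0.02 ± 0.12 (SE). Gphn encodes gephyrin, a scaffold of inhibitory synapses. It was at 61.0, 58.2 and 55.2 CPM in mutants and 54.4, 57.6 and 52.9 CPM in controls. Only mutant replicate 3 lay below the highest control, and the log2 fold change was 0.08 ± 0.08 (SE; unadjusted p = 0.359 by edgeR).

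CaMKII phosphorylates receptors and scaffolds after calcium entry. Camk2a, its alpha subunit and a mark of maturing forebrain neurons, was at 28.7, 30.5 and 24.3 CPM in mutants and 30.4, 37.3 and 30.2 CPM in controls. Mutant replicate 2 alone reached the control range. The log2 fold change of -0.23 ± 0.13 (SE) had the smallest p of any member (unadjusted p = 0.105, adjusted p = 0.9999, edgeR's quasi-likelihood test), and its interval ran from -0.52 to 0.06. Camk2b, the beta subunit, was at 155, 170 and 83.2 CPM in mutants and 153, 169 and 96.6 CPM in controls, or -0.04 ± 0.28 (SE). The replicate 3 libraries were far below the others in both genotypes.

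Members changed sign between replicates, whose numbers are not stated to pair embryos. Mutant minus control, 27 of 37 members lay above 0 within replicate 1, with a median of 0.06 log2 units, and 15 of 37 within replicate 2, with a median of -0.06. Of all tested genes, 49.9% lay above 0 within replicate 1 and 48.4% within replicate 2. With these 2 replicates averaged, 19 of 37 members lay above 0 with a median of 0.004 log2 units, where all tested genes had a median of -0.01. Within replicate 3, 7 of 37 lay above 0 with a median of -0.09, where 47.9% of all tested genes lay above 0. In 13 members the difference was below 0 in both parts, among them Camk2a at -0.19 and -0.31, Syn3 at -0.13 and -0.22 and Nrxn3 at -0.10 and -0.15. In 2 members, Syn1 and Gphn, it was above 0 in both, and in 22 it had opposite signs. Rab3a, for example, was at 0.24 within replicates 1 and 2 and at -0.13 within replicate 3, and Vamp2 at 0.07 and -0.36. With 1 library per genotype, the replicate 3 values have no test.

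Fold changes among the members varied with base composition in replicates 1 and 2. GC content of the longest transcript ran from 36.9% for Homer1 to 62.4% for Nrxn2. For the 13 members above 0 the median was 55.1%, for the 24 below 0 it was 48.2%. Across the 37 genes, GC content and log2 fold change had a Pearson r of 0.48 and a Spearman rho of 0.52, as a description of genes that share the same 6 libraries. Within replicate 1 r was 0.51 and within replicate 2 it was 0.54, but within replicate 3 it was -0.33, so the relation did not hold in every replicate. Over 19521 tested genes the pooled r was 0.28 and rho was 0.33. With the trend of each library on GC content and transcript length removed, Nrxn2 stood at -0.05, Shank3 at -0.15 and Shank1 at -0.10, while Homer1 stood at 0.11 and Nlgn1 at 0.03, each on the other side of 0 from its value above. The members' GC content and log2 fold change then had a Pearson r of -0.36 and a Spearman rho of -0.32. The relation thus reversed in sign, and these values still varied with base composition. Camk2a was at -0.23 without that correction and at -0.22 with it and the replicate number as a term, and 0 members passed in either fit.

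Most members were lowest in the replicate 3 library of each genotype. This held in both genotypes for 28 of 37 members, where 20.9% of all tested genes had the pattern. Replicate 1 was lowest in both for 0 members (9.57% of all tested genes) and replicate 2 for 0 members (11.5%). All 7 vesicle proteins and both CaMKII subunits had the pattern, as did 6 of 9 fusion genes, 4 of 5 active zone genes, 4 of 5 adhesion genes and 5 of 9 scaffolds. The exceptions were Vamp1, Syt11, Cplx2, Bsn, Nlgn2, Dlg1, Shank1, Shank3 and Homer1. The replicate 2 libraries were the highest of both genotypes in 16 members (13.2% of all tested genes), the replicate 1 libraries in 2 (9.43%) and the replicate 3 libraries in 1, Syt11 (21.4%). Replicate 3 stood apart over all genes already, so the pattern describes these libraries and is no test.

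**Figure D3:**
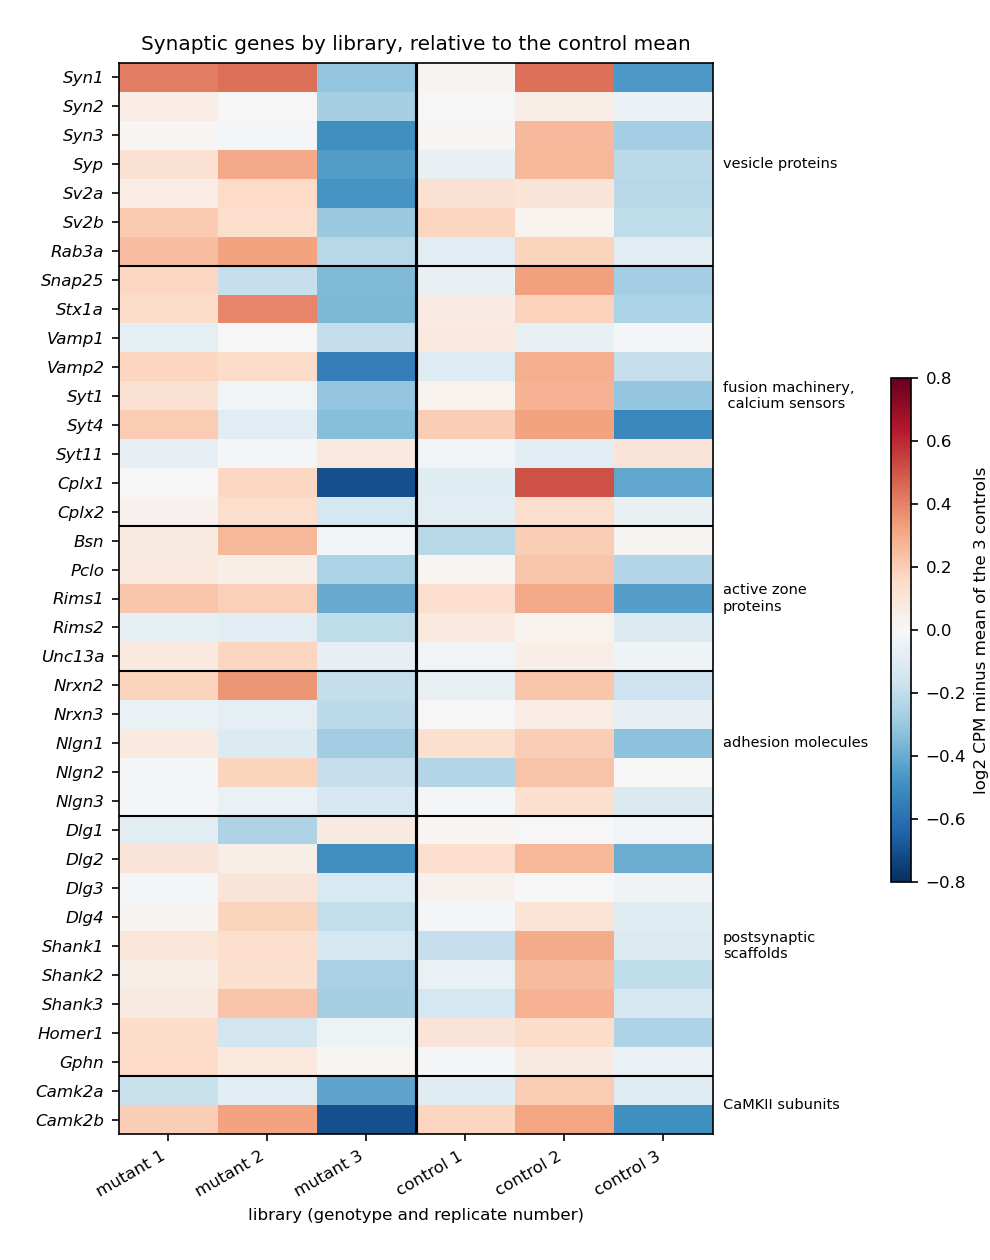
Log2 CPM of each member (rows, by role) in each library (columns, mutants left of the line), relative to the mean of the 3 controls; red is higher and blue lower. The columns of mutant replicate 3 and control replicate 3 are blue in most rows, and Syt11 is the 1 row that is highest in both.

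The size of the replicate 3 difference varied by gene more than by genotype. Relative to the mean of replicates 1 and 2, Camk2b lay at -0.96 log2 units in mutants and -0.74 in controls, and Cplx1 at -0.78 and -0.62, mutants first. Syn1 was at -0.73 in mutants and -0.69 in controls, and Rims1 at -0.61 and -0.66. Syt4 was at -0.39 in mutants and -0.78 in controls. At the other end stood Syt11, at 0.12 in mutants and 0.16 in controls, and Dlg1, at 0.24 and -0.03. The median over the members was -0.32 in mutants and -0.25 in controls, where all tested genes had a median of 0.01 in both. By role, the medians were largest in size for CaMKII (-0.62 in mutants, -0.45 in controls) and smallest for the active zone (-0.19 and -0.16). Across the 37 members, the shifts in mutants and controls had a Pearson r of 0.71 and a Spearman rho of 0.69, as a description of genes measured in the same libraries.

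**Figure D4:**
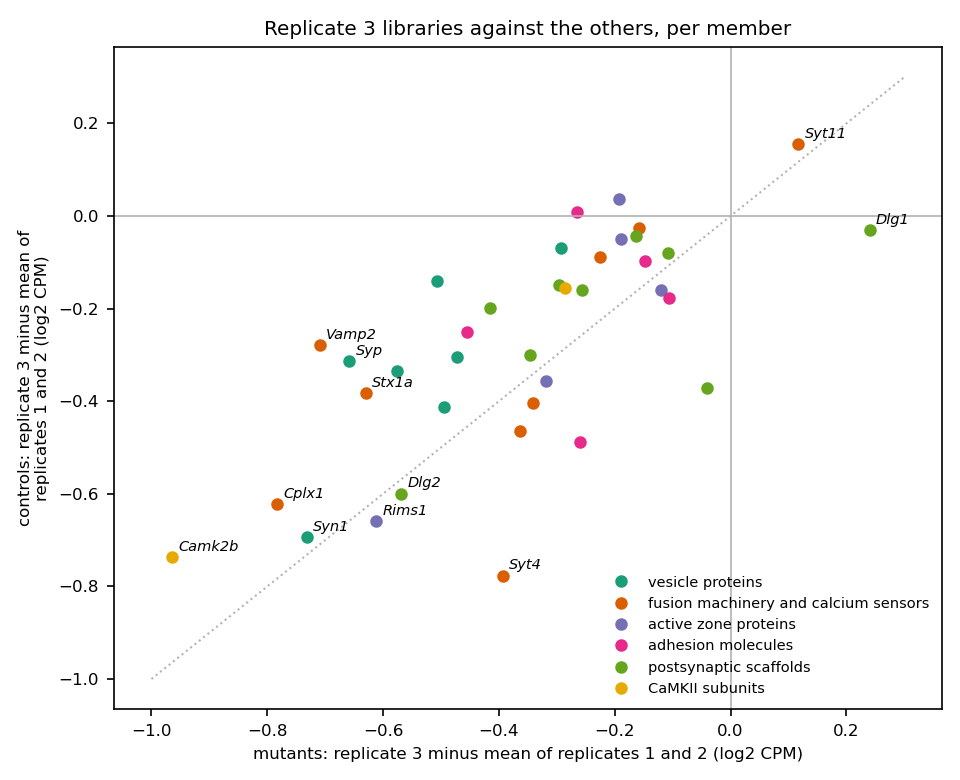
Replicate 3 minus the mean of replicates 1 and 2 (log2 CPM) in mutants (horizontal) and in controls (vertical), 1 point per member, coloured by role, with a dotted line of equal shift. Camk2b, Cplx1, Syn1 and Rims1 lie far down the line, with Camk2b at -0.96 in mutants and -0.74 in controls, and Syt11 lies above 0 on both axes.

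Markers of other cell states moved with the same libraries. All 15 proliferating cell genes were highest in replicate 3 of both genotypes, and their summed level was 1240, 1276 and 2052 CPM in mutant replicates 1, 2 and 3, against 1242, 1141 and 1984 CPM in control replicates 1, 2 and 3. Among them Top2a, a topoisomerase of dividing cells, was at 361, 358 and 627 CPM in mutants and 367, 336 and 582 CPM in controls. Radial glia genes, 10 in number, summed to 1372, 1496 and 1657 CPM in mutants and 1303, 1267 and 1619 CPM in controls. Of these, 6 were highest and 1 was lowest in replicate 3 of both genotypes. The 12 genes of postmitotic neurons summed to 7290, 7085 and 6202 CPM in mutants and 7206, 7397 and 6153 CPM in controls. The sum was lowest in replicate 3, and 7 of the 12 genes were lowest there in both genotypes. No gene of these 3 lists was at 0. Other lists were mixed. Replicate 3 of both genotypes was lowest for 2 of 8 glutamatergic neuron genes and highest for 0. For the 8 GABAergic neuron genes it was lowest for 4 and highest for 2. Of 6 oligodendrocyte precursor genes 5 were lowest in replicate 3 of both genotypes. Of 9 red cell genes, 4 were highest and 4 lowest in replicate 3 of both genotypes, and the median shift of the list was -0.0006 log2 units in mutants and -0.25 in controls. Their summed level was 621, 666 and 829 CPM in mutants and 596, 602 and 749 CPM in controls. The part of these cell states in the members' values was not tested.

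**Figure D5:**
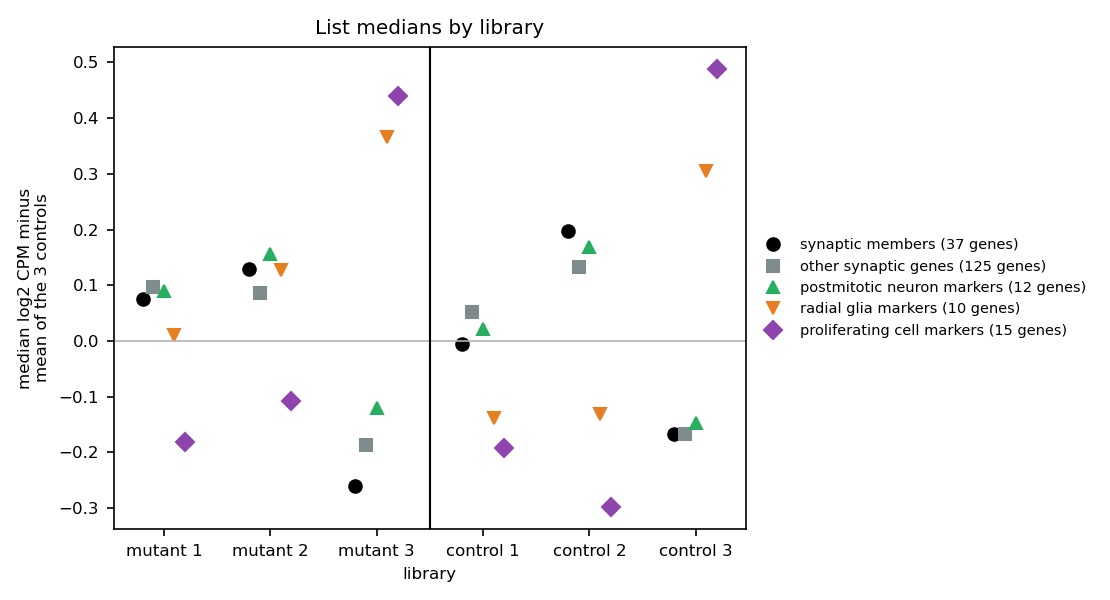
Median over each gene list of log2 CPM relative to the mean of the 3 controls (vertical) in each library (horizontal, mutants left of the line), for the members, the other synaptic genes and markers of 3 cell states. In mutant replicate 3 and control replicate 3 the members lie at -0.26 and -0.17, while proliferating cell markers lie at 0.44 and 0.49.

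Another 127 synaptic genes, listed by role with earlier results of these data known, were read in the same libraries. Of these, 125 passed the filter, all but Cplx3 and Cplx4. In the same edgeR fit 0 of 125 passed (adjusted p = 0.9999 for each), with 52 above 0, 73 below and a median of -0.02. At an unadjusted p under 0.05 there were 2 higher and 0 lower of 125, against 1.19% and 0.729% of all tested genes, and with the GC and length trend removed there were 0. DESeq2 called 0 of them as well. Both genes encode adhesion molecules and have a high GC content, 63.1% for Lrrc4b and 65.6% for Lrfn4. Lrrc4b was at 164, 171 and 133 CPM in mutants and 99.7, 148 and 110 CPM in controls, or 0.39 ± 0.16 (SE), and Lrfn4 was at 84.4, 89.0 and 68.6 CPM in mutants and 62.6, 70.0 and 66.2 CPM in controls, or 0.28 ± 0.11 (SE). In both genes mutant replicate 3 overlapped the controls.

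In the other lists several genes of smallest p lay further from 0 than their standard error. None had an unadjusted p under 0.05 by edgeR, nor did any on the lower side of the adhesion list. Among other vesicle proteins the genes of smallest p were Syngr3 at 0.15 ± 0.16, Syngr1 at 0.05 ± 0.18, Rab3d at -0.15 ± 0.11 and Synpr at -0.11 ± 0.18 (log2, SE). In the fusion list they were Syt2 at 0.23 ± 0.17, Syt5 at 0.20 ± 0.19, Snap23 at -0.11 ± 0.12 and Stxbp5 at -0.09 ± 0.10. Active zone genes gave Lin7b at 0.41 ± 0.33, Ppfia3 at 0.16 ± 0.14, Unc13b at -0.06 ± 0.08 and Ppfia1 at -0.05 ± 0.08. Endocytosis genes, which retrieve vesicles, gave Epn1 at 0.17 ± 0.11, Bin1 at 0.12 ± 0.12, Sh3gl2 at -0.22 ± 0.22 and Synj1 at -0.08 ± 0.10. On the lower side of the adhesion list were Slitrk1 at -0.12 ± 0.10 and Slitrk3 at -0.19 ± 0.17. Scaffolds gave Dlgap3 at 0.35 ± 0.20, Pick1 at 0.11 ± 0.08 and Tanc2 at -0.14 ± 0.13. The CaMKII inhibitors Camk2n2 and Camk2n1 had 0.34 ± 0.23 and 0.13 ± 0.13, and the delta subunit gene Camk2d had -0.10 ± 0.13 (SE). Of the 125 genes, 88 were lowest in the replicate 3 library of both genotypes, with a median shift of -0.31 log2 units in mutants and -0.25 in controls.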

How the data were processed

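RNA was measured in 3 mutant and 3 control forebrain libraries. The authors deposited unnormalized read counts, 1 value for each gene and library. Per the labels' protocols, libraries were made with a stranded total RNA kit after removal of ribosomal RNA. Per the submitters' processing notes, bcl2fastq 2.17.1.14, HISAT2, SAMtools 1.9 and HTSeq 0.9.1 were used on GRCm38, while the sources used here do not give the strand option of the counter. Of 33084 identifiers, 32888 had a symbol in GENCODE M21.

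Counts were analysed in R 4.3.3 with edgeR 4.0.16 (filterByExpr with a minimum count of 10 and a minimum total of 15, TMM scaling, robust quasi-likelihood F test, mutant over control, no covariate, Benjamini-Hochberg over 19616 genes, threshold 0.05) and with DESeq2 1.42.0 as an alternative. Log2 CPM used a prior count of 2. The standard error is the size of the fold change over the root of F, and 95% intervals use the t distribution. The alternatives were another scaling, no filter, the replicate number as a block, a GC and length correction (splines with 4 degrees of freedom), replicates 1 and 2 alone, and each library left out. Figures used matplotlib 3.10.9. The members and lists were chosen with earlier results of these data known. Named genes are all members, the genes of smallest p in each direction of the other lists, up to 2 of each, and Dyrk1a; a gene that this rule names is not reported here. Overlapping genes and antisense partners can share reads.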

Additional observations from a re-analysis of the deposited data

How the results depend on the processing

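Over 13 alternatives, 0 members and 0 of the other synaptic genes were called in each. The medians by role moved by less than the spread between libraries. Leaving out 1 of 3 libraries can hardly exceed that spread, so for the 6 fits lacking 1 library this is no sign of stability. Over all tested genes 0 were called except with only replicates 1 and 2, where 3 were, Hist1h2ag, Pisd-ps1 and Tmem181b-ps, named after their values were seen; the cause was not tested. The count of genes at an unadjusted p under 0.05 was 376, and 261 by DESeq2, 587 with no filter, from 179 (control replicate 1 left out) to 1060 (control replicate 3 left out) over the 6 fits lacking 1 library, 245 and 689 of them lacking mutant replicates 2 and 3, and 1544 with only replicates 1 and 2. The labels do not say that replicate numbers pair embryos, so the main fit had no replicate block. Differences between replicates that both genotypes share therefore count as spread in the main fit. Deviations of same-numbered libraries from their group means had correlations of 0.24, 0.07 and 0.36 for replicates 1, 2 and 3 over all genes. Mutant replicate 1 correlated better with control replicate 2 there, at 0.35. Over the members alone the same-numbered libraries had 0.47, 0.48 and 0.71, but mutant replicate 1 again correlated best with control replicate 2, at 0.64. The replicate block lowered the members' standard errors to between 0.07 and 0.13, for Camk2b to 0.08 from 0.28, and put Camk2a at an unadjusted p of 0.029 by edgeR's quasi-likelihood test (adjusted p = 0.987). With the replicate block, 765 genes, and with the GC and length trend also removed 1070 genes, were at an unadjusted p under 0.05. Members at that level were Camk2a with the replicate block (adjusted p = 0.987) and with the block and the trend removed (adjusted p = 0.891), Shank3 with both (adjusted p = 0.903), and Rab3a without mutant replicate 3 (adjusted p = 0.974) and with only replicates 1 and 2 (adjusted p = 0.63), all by edgeR's quasi-likelihood test. The last was the smallest adjusted p of a member in any alternative.

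The sign was the same in every alternative for 10 members: Syn3, Rab3a, Vamp1, Rims2, Unc13a, Nrxn3, Nlgn3, Dlg1, Gphn and Camk2a. The others crossed 0 as follows, and the cause was not tested. With DESeq2's size factors in edgeR, Syt11 was at 0.0011 and Rims1 at 0.0029; by DESeq2, at 9.7e-04 and 0.0019. With no filter Rims1 was at 4.1e-04. With the replicate block Syp was at -0.0058 and Rims1 at 0.0037. With the GC and length trend removed, and then with the replicate block as well, Stx1a was at -0.024 and -0.030, Syt11 at 0.021 and 0.021, Pclo at 0.035 and 0.036, Rims1 at 0.041 and 0.043, Nrxn2 at -0.055 and -0.055, Nlgn1 at 0.026 and 0.018, Dlg3 at 0.012 and 0.010, Shank1 at -0.104 and -0.099, Shank3 at -0.154 and -0.154, and Homer1 at 0.115 and 0.109. With only replicates 1 and 2, Syn2 was at 0.0091, Sv2a at 7.5e-04, Vamp2 at 0.064, Syt11 at 0.016, Nlgn2 at 0.077, Dlg3 at 0.035 and Camk2b at 0.019. Leaving out 1 library at a time gave these ranges of log2 fold change: Syn1 -0.016 to 0.42, Syn2 -0.12 to 0.0296, Syp -0.15 to 0.21, Sv2a -0.19 to 0.10, Sv2b -0.067 to 0.17, Snap25 -0.28 to 0.053, Stx1a -0.094 to 0.27, Vamp2 -0.17 to 0.15, Syt1 -0.21 to 0.068, Syt4 -0.31 to 0.058, Syt11 -0.043 to 0.059, Cplx1 -0.36 to 0.11, Cplx2 -0.053 to 0.088, Bsn -0.0016 to 0.20, Pclo -0.15 to 0.073, Rims1 -0.18 to 0.18, Nrxn2 -0.0023 to 0.26, Nlgn2 -0.12 to 0.11, Dlg2 -0.28 to 0.055, Dlg3 -0.067 to 0.048, Dlg4 -0.084 to 0.10, Shank1 -0.072 to 0.18, Shank2 -0.12 to 0.10, Shank3 -0.10 to 0.16, Homer1 -0.12 to 0.054, Camk2b -0.23 to 0.22. Those of these values that lie near 0 are below the precision of 3 libraries per group. Standard errors for the members were 0.08 to 0.28 there without the replicate block. Fits lacking 1 library had fewer in 1 group, and some of their ranges reached further, to 0.42 for Syn1 and to -0.36 for Cplx1.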
